A study of Mus musculus with 4 samples.

Results

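The metzincin proteases of the extracellular space and their inhibitors were examined in isolated astrocytes from mouse cerebral cortex at postnatal day 5. Members were the protein-coding genes whose symbol is Adam, Adamts, Adamtsl, Mmp or Timp followed by a number, and 61 of the 23475 genes listed in the joined tables met that rule: 21 ADAM, 19 ADAMTS, 4 ADAMTS-like, 13 matrix metalloproteinase (MMP) and 4 TIMP genes. Another 22 annotated genes with such symbols, among them the stromelysin Mmp3 and the macrophage elastase Mmp12, were not analysed here. The samples were 4 mRNA libraries in 2 groups of 2: WT, from PD1fl/fl mice, which carry a floxed gene for the inhibitory immune receptor PD-1, and KO, from mice named PD1cKO-Cx3, a conditional deletion of PD-1. The labels do not spell out what Cx3 stands for, so the promoter driving the deletion is not stated here. The comparison of the groups asks which transcripts of the astrocyte preparation differ when PD-1 is deleted.

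MMPs are secreted or membrane-bound zinc proteases that cut collagens, proteoglycans and cell-surface proteins, and most are made as inactive precursors. ADAMs are membrane-anchored relatives, several of which shed the outer parts of receptors, growth factors and adhesion proteins, while others have lost protease activity and serve as receptors. ADAMTS proteins are secreted, and several cut the hyaluronan-binding proteoglycans (lecticans) of brain matrix. ADAMTS-like proteins lack the protease domain, and the TIMPs are secreted inhibitors that bind the active site of these proteases. In the developing brain these genes are known for roles in cell migration, vessel growth, synapse adhesion and the turnover of perineuronal matrix.

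The libraries held between 14224519 and 16961160 counts, of which the members took between 0.138% and 0.164%. The targeted gene could not check the group labels, since Pdcd1 had 0 counts in both WT libraries, 20 counts in KO replicate 2, and no listed count in KO replicate 1. KO replicate 2 stood apart in sex-linked transcripts, where the Y-linked Ddx3y had 2472 counts and Xist had 0. In each of the others Ddx3y had 0 counts and Xist between 6732 and 8564. Among the members only Timp1 lies on a sex chromosome. Astrocyte markers were abundant in every library (14 of 14 listed markers above 0, summed level 7079 to 7905 CPM in KO and 7449 to 7976 CPM in WT, where CPM are counts scaled by library total and TMM factor), and markers of other cells were present too. The 15 microglia and macrophage markers summed to 4276 and 3477 CPM in KO replicates 1 and 2 and to 842 and 1226 CPM in WT replicates 1 and 2. The 13 endothelial markers summed to 708 and 350.0 CPM in KO and to 244 and 83.0 CPM in WT. All of these microglial and endothelial markers had counts in every library. The 13 listed markers of pericytes, smooth muscle and fibroblasts summed to 990.4 and 481 CPM in KO and to 393 and 423 CPM in WT, and of these only Tagln was at 0 in a library. The 8 listed markers of mature oligodendrocytes summed to 703 and 877 CPM in KO and to 568 and 372 CPM in WT, with Mobp at 0 in a library. In bulk RNA, more cells of a type and more RNA per cell cannot be told apart.

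No member passed the test between the groups. Of the 61 members 55 had counts high enough to be tested, and 0 were higher and 0 lower by the edgeR quasi-likelihood test at a Benjamini-Hochberg adjusted p of 0.05. Among all 17696 tested genes 0.017% were called higher and 0% lower. At an unadjusted p of 0.05, 6 members were higher (Adam10, Adam15, Adam33, Adamts1, Mmp15 and Mmp25) and 1 was lower (Adamtsl4), beside 5.88% of all tested genes higher and 2.41% lower. DESeq2 called 2 members higher, Adam10 and Mmp25, and 0 lower, beside 1.8% and 0.325% of its genes, and limma-voom called 0. Of the tested members 27 had a log2 fold change (KO over WT) above 0 and 28 below 0. Their median was -0.06 and that of all tested genes was -0.00027. When WT replicate 1 was left out, the median was 0.27 over the 58 members then tested.

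The promoters of 4 of the members named at an unadjusted p of 0.05 are shown because their genes lay at the edges of the comparison, with Adam10, Adamts1 and Mmp25 highest in KO and Adamtsl4 highest in WT. RefSeq sequences on GRCm38.p6, running from 250 bases before to 50 bases after the annotated start, matched 35 of the 61 members by symbol. Capitals mark GC boxes (GGGCGG, read on both strands), the TATA box (TATAAA) and the core of the site of the myeloid factor PU.1 (GAGGAAG), and neighbouring matches can overlap.
Adam10, chr9:70678732-70679031, plus strand: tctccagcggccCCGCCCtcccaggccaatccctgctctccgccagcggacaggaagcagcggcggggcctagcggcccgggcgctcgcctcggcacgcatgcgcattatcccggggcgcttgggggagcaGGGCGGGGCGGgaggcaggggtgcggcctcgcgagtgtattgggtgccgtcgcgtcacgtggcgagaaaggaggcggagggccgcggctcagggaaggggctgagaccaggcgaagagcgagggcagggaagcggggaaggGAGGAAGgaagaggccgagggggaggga
Adamts1, chr16:85803064-85803363, minus strand: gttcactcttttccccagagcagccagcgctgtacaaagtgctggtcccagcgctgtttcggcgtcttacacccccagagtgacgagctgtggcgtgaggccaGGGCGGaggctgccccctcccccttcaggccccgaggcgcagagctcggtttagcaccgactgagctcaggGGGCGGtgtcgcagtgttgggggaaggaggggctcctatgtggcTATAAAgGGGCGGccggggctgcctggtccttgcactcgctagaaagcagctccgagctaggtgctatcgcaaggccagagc
Mmp25, chr17:23645220-23645519, minus strand: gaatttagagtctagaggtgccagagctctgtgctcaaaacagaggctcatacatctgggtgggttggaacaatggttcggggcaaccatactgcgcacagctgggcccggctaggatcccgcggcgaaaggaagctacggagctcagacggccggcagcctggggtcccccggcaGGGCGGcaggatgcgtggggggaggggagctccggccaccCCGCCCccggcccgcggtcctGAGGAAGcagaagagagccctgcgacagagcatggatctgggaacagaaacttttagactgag
Adamtsl4, chr3:95687868-95688167, minus strand: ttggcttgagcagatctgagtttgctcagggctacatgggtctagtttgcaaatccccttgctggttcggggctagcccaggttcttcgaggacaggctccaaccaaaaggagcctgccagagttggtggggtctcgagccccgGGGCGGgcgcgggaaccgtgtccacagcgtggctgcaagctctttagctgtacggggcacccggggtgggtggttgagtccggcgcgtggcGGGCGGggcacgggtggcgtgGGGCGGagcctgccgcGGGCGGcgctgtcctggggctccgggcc
The windows held 3, 3, 2 and 4 GC boxes in that order, a motif found in 35.7% of all 32851 promoters of the same length and in 26 of the 38 promoters of members. Adamts1 alone of these 4 had a TATA box, which 4 of the 38 member promoters and 13.6% of all promoters held. Adam10 and Mmp25 each had 1 PU.1 core, also held by 4 of the 38 and by 13.6% of all promoters, and the promoters of Adam15 and Mmp15 held none. The other member promoters with it were that of Adamts13, not tested, and 1 of those of Adam19, whose log2 fold change was -0.31. A search for the AP-1 site (TGANTCA) found no match in the 4 windows and 7.81% of all promoters held one. The GC content was 73.3% for Adam10, 64.7% for Adamts1, 63.3% for Mmp25 and 68.0% for Adamtsl4. The median was 52.7% over all promoters and 64.2% over the promoters of members, so a high GC content was shared by the set.

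**Figure D1:**
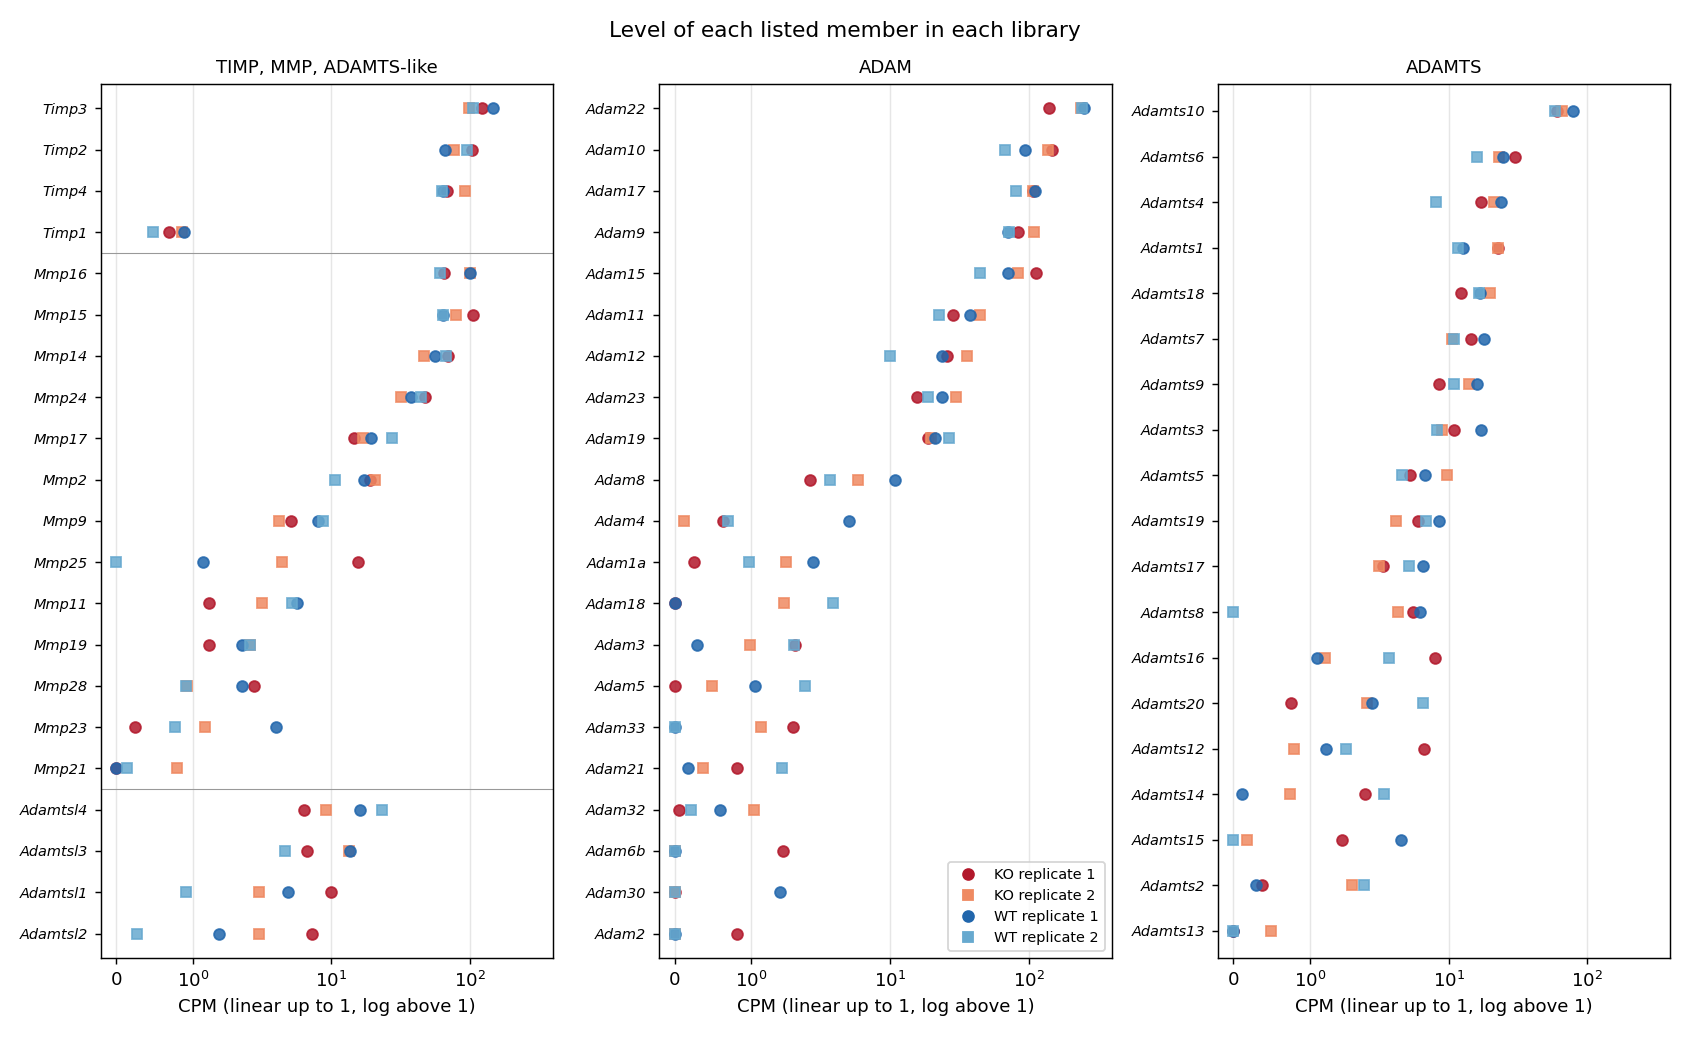
Level of each of the 61 members in each library in CPM, by family, on an axis that is linear up to 1 and logarithmic above (points: single libraries, 2 per group). Levels run from 0 to 251 CPM, and the KO and WT points of most members interleave, while those of Adam10, Adamts1 and Adamtsl4 do not.

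Transcript levels within the set were very unequal. Over the 4 libraries 4 members averaged at least 100 CPM, 27 at least 10 CPM and 51 at least 1 CPM, and the 10 most abundant held 66.4% of the summed CPM. Per kilobase of exon, the scale on which genes can be compared, the highest mean level was that of Adam10, at 22.8 CPM per kilobase, with 29.8 and 28.1 in KO and 19.3 and 13.8 in WT. Timp2 followed at 21.9 (range over the libraries 17.1 to 26.3) and Adam9 at 20.5 (17.4 to 26.8). The ranges of these leading genes overlapped, so their order is not settled by these libraries. Adam22, Mmp15, Timp3, Adam17, Adam15, Timp4 and Mmp14 came next, with mean levels from 15.2 down to 10.1 CPM per kilobase. The top 10 thus held 3 TIMPs, 2 membrane-type MMPs and 5 ADAMs, and no ADAMTS gene.

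The TIMPs differed little between the groups. Timp3, which binds to matrix and inhibits ADAMs as well as MMPs (ENSMUSG00000020044, chr10:86300372-86349506, plus strand, within the synapsin gene Syn3 on the opposite strand), had 121 and 98.3 CPM in KO replicates 1 and 2 and 147 and 105 CPM in WT replicates 1 and 2. Its groups overlapped, with a log2 fold change of -0.20 ± 0.22 (SE, edgeR adjusted p = 0.91). Timp2, which inhibits MMPs and also takes part in activating the MMP2 precursor, had 103 and 76.8 CPM in KO and 66.4 and 95.7 CPM in WT. The groups overlapped here too, since each held a high and a low library (log2 fold change 0.15 ± 0.25). Timp4, an inhibitor of narrower tissue distribution within the gene Syn2, had 68.8 and 91.7 CPM in KO and 64.4 and 63.3 CPM in WT. Both KO libraries lay above both WT libraries, by a log2 fold change of 0.33 ± 0.20 that did not pass (adjusted p = 0.77) and was 0.11 without KO replicate 2. Timp1, the TIMP known to be induced in injured astrocytes, was near the floor of detection with 11 and 14 counts in KO and 15 and 7 in WT. Its 4 libraries interleaved (log2 fold change 0.16 ± 1.24). The exons of Timp3 share 1733 bases (21.3% of its exon bases) with Syn3, and those of Timp4 share 90 with Syn2, and the sources used here do not say if the counts are strand-specific.

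Among the secreted MMPs both gelatinases were measured, and they lay on opposite sides. Mmp2, the constitutive gelatinase A, had 19.0 and 20.7 CPM in KO and 17.2 and 10.6 CPM in WT. Mmp9, the inducible gelatinase B, had 5.12 and 4.17 CPM in KO and 7.94 and 8.69 CPM in WT. The groups did not overlap for either gene, with KO above WT for Mmp2 (log2 fold change 0.52 ± 0.34, adjusted p = 0.80) and below for Mmp9 (-0.84 ± 0.46, adjusted p = 0.73), and neither passed. The log2 fold change of Mmp2 ran from 0.21 without WT replicate 2 to 0.91 without WT replicate 1, and that of Mmp9 from -0.99 to -0.70 over the same kind of omission. Mmp11, the furin-activated stromelysin 3, had 1.31 and 3.13 CPM in KO and 5.69 and 5.21 CPM in WT. Its KO libraries lay below WT without passing (log2 fold change -1.29 ± 0.70, adjusted p = 0.73), by -0.80 without KO replicate 1 and -2.05 without KO replicate 2.

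Per kilobase, Mmp15, Mmp14, Mmp16 and Mmp24, all of the membrane type, had the highest mean levels of the MMPs. Mmp16 had 64.9 and 100.5 CPM in KO and 100.8 and 60.4 CPM in WT, so that each group held 1 high and 1 low library. Mmp14, the activator of the MMP2 precursor at the cell surface, had 69.6 and 46.8 CPM in KO and 56.2 and 67.2 CPM in WT. Mmp24, a mainly neural member, had 47.6 and 31.6 CPM in KO and 37.7 and 44.6 CPM in WT. For these 3 genes the groups overlapped and the log2 fold changes were 0.04 ± 0.32, -0.09 ± 0.25 and -0.06 ± 0.27. Mmp24 shares 13.6% of its exon bases with BC029722 on the opposite strand. Mmp15 (ENSMUSG00000031790, chr8:95352268-95375080) had 105 and 79.5 CPM in KO and 63.9 and 64.0 CPM in WT. Both KO libraries were higher, 1.45-fold by the means (log2 fold change 0.53 ± 0.20, unadjusted p = 0.036, adjusted p = 0.55 in edgeR), and the log2 fold change was 0.32 without KO replicate 1. Mmp17, which is held in the membrane by a lipid anchor, had 14.6 and 16.9 CPM in KO and 19.2 and 27.4 CPM in WT. Both KO libraries lay below WT by a log2 fold change of -0.56 ± 0.31, which was -0.28 without WT replicate 2 and did not pass (adjusted p = 0.73).

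Mmp25, a lipid-anchored MMP known from leukocytes (ENSMUSG00000023903, chr17:23629458-23645269), had more counts in each KO library than in either WT library. Its counts were 247 and 72 in KO and 20 and 0 in WT, or 15.4 and 4.42 CPM against 1.19 and 0 CPM. The KO mean was 16.7-fold that of WT, and the KO libraries differed 3.50-fold from each other (log2 fold change 4.02 ± 1.49, unadjusted p = 0.037, edgeR adjusted p = 0.55). DESeq2 gave an adjusted p of 0.032 and limma-voom 0.68. The log2 fold change was 2.87 without KO replicate 1, 4.66 without KO replicate 2 and 3.06 without WT replicate 2, and with only WT replicate 2, at 0, for comparison it has no finite base. In the 4 libraries Mmp25 followed the order of the endothelial sum, KO replicate 1, KO replicate 2, WT replicate 1 and WT replicate 2, and the microglial sum was also higher in KO, but the part of these cells in the Mmp25 counts was not tested.

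**Figure D2:**
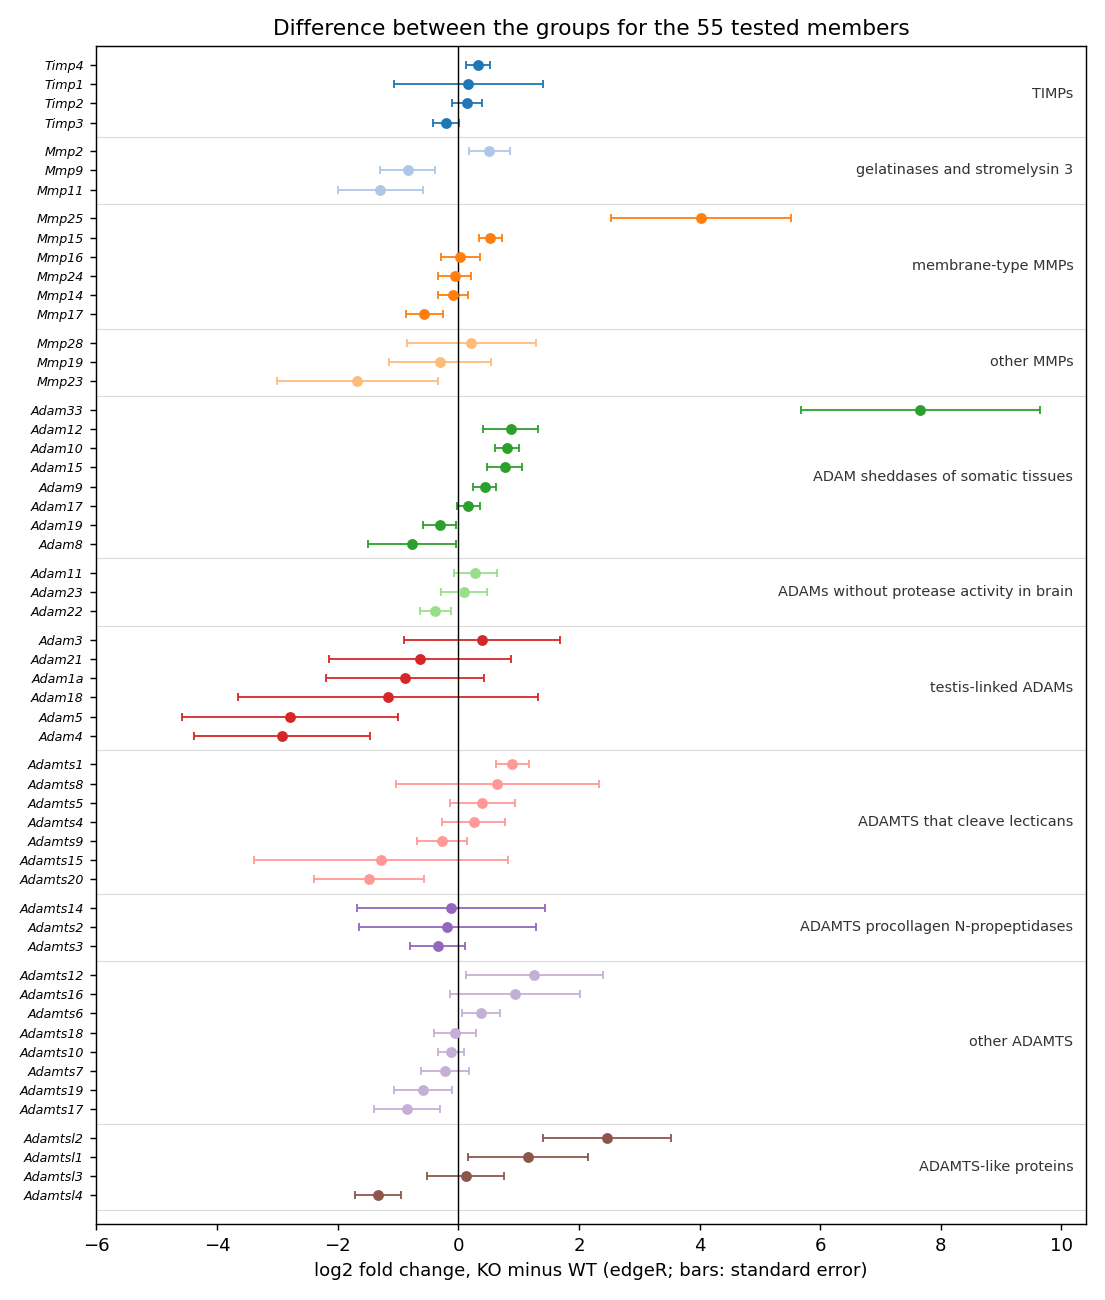
log2 fold change of KO over WT for the 55 tested members, grouped by role (points: edgeR estimates from 2 libraries per group, bars: standard errors). Most estimates lie within 1 of 0, Adam33 and Mmp25 stand to the right and Adam4 and Adam5 to the left, all of them genes with a low count in some library, and 0 members passed at an adjusted p of 0.05.

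No ADAM sheddase passed in edgeR. Their median log2 fold change was 0.60, and 6 of the 8 lay above 0, beside 8842 of all 17696 tested genes. In 5 both KO libraries lay above both WT libraries, an order that 21.2% of all tested genes showed, and in 1, Adam19, both lay below. Adam10, the main sheddase of Notch receptors, of the amyloid precursor protein and of many adhesion proteins (ENSMUSG00000054693, chr9:70678997-70780229), had 147 and 138 CPM in KO and 94.8 and 67.8 CPM in WT. The KO libraries were close to each other and both above WT, 1.75-fold by the means. Those means were 142 ± 6.10 CPM in KO and 81.3 ± 19.1 CPM in WT (SD over 2 libraries). The log2 fold change was 0.81 ± 0.20 (SE) with an unadjusted p of 0.0076, the smallest among the members, and an adjusted p of 0.37 in edgeR, 0.019 in DESeq2 and 0.24 in limma-voom. It ranged from 0.59 without WT replicate 2 to 1.07 without WT replicate 1. Adam10 is expressed by microglia and endothelium as well as by astrocytes, and the marker sums of microglia, endothelium and mature oligodendrocytes were higher in KO as given above, and their part in the difference was not tested.

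Adam17, the sheddase of tumour necrosis factor and of ligands of the epidermal growth factor receptor, did not share that order. It had 108 and 107 CPM in KO and 111 and 81.5 CPM in WT, with overlapping groups and a log2 fold change of 0.16 ± 0.19. Adam9 had 84.2 and 110.3 CPM in KO and 71.6 and 72.0 CPM in WT. Adam15, which carries an integrin-binding motif and is known from endothelial cells, had 113 and 83.9 CPM in KO and 71.3 and 44.3 CPM in WT. For both genes the KO libraries lay above WT, by log2 fold changes of 0.44 ± 0.19 (adjusted p = 0.63) and 0.77 ± 0.29 (unadjusted p = 0.037, adjusted p = 0.55 in edgeR). Their lowest values were 0.23 for Adam9 without KO replicate 2 and 0.47 for Adam15 without WT replicate 2. Adam15 shares 1263 bases (20.6% of its exon bases) with 4731419I09Rik on the opposite strand, so the limit given for Timp3 holds for it too. Adam33, a mesenchymal ADAM, had 32 and 19 counts in KO and 0 in both WT libraries. Taking 3 counts as the limit that 0 allows over the WT group, its KO level of 1.57 CPM was 16.3-fold that limit (unadjusted p = 0.013, adjusted p = 0.45 in edgeR, 0.17 in DESeq2). This fold is no lower bound, since it leaves out the spread between libraries and the error of the KO level. Adamts8, for example, had 105 and 0 counts in WT replicates 1 and 2. The fitted log2 fold change of Adam33, as plotted, is no bound either, and putting Adam33 at that limit leaves the median of the sheddases as it was. The remaining sheddases, outside the rule for named members and given for their role, were Adam12 at 0.87 ± 0.45, Adam19 at -0.31 ± 0.27 and Adam8, a leukocyte ADAM, at -0.77 ± 0.73 on the log2 scale, and none of these passed. Adam8 had its highest level, 10.8 CPM, in WT replicate 1, where the microglial sum was lowest, and the part of microglia in its counts was not tested.

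The 3 neuronal ADAMs that lack protease activity act as receptors of the secreted LGI proteins at synapses and in axons. Adam22 (ENSMUSG00000040537, chr5:8072352-8368160) had the highest CPM of any member, with 139.8 and 239 CPM in KO and 251 and 242 CPM in WT. Both KO libraries lay below both WT libraries, but KO replicate 2 only narrowly, and the log2 fold change of -0.38 ± 0.25 shrank to -0.04 without KO replicate 1. Adam11 had 28.4 and 44.6 CPM in KO and 37.5 and 22.7 CPM in WT, and Adam23 ranged from 15.6 to 30.0 CPM. For both the groups overlapped, and their log2 fold changes were 0.28 ± 0.36 and 0.10 ± 0.38. Among the LGI ligands, 0 of 4 tested genes passed. The most abundant were Lgi1, at 0.21 ± 0.38 on the log2 scale, and Lgi3, at 0.45 ± 0.35. The neuron markers summed to 2492 and 2614 CPM in KO and to 2781 and 3171 CPM in WT.

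ADAMs known from testis and sperm were at trace levels. Of the 10 listed, 6 were tested, and the highest mean level of any was that of Adam4. Adam4 had 10 and 2 counts in KO and 85 and 10 in WT, so that 1 library, WT replicate 1, carried most of them. The log2 fold change of -2.92 ± 1.46 (adjusted p = 0.69) became -0.88 without that library. The untested members were Adam2, Adam6b, Adam30, Adam32, Adamts13 and Mmp21, with at most 27 counts in any library. Each of these but Adam32 had a library without a listed count, where at most 4 counts are possible. Adam1a shares 63.7% of its exon bases with the gene model Gm42878 on the same strand, so its 4 to 47 counts per library are uncertain.

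**Figure D3:**
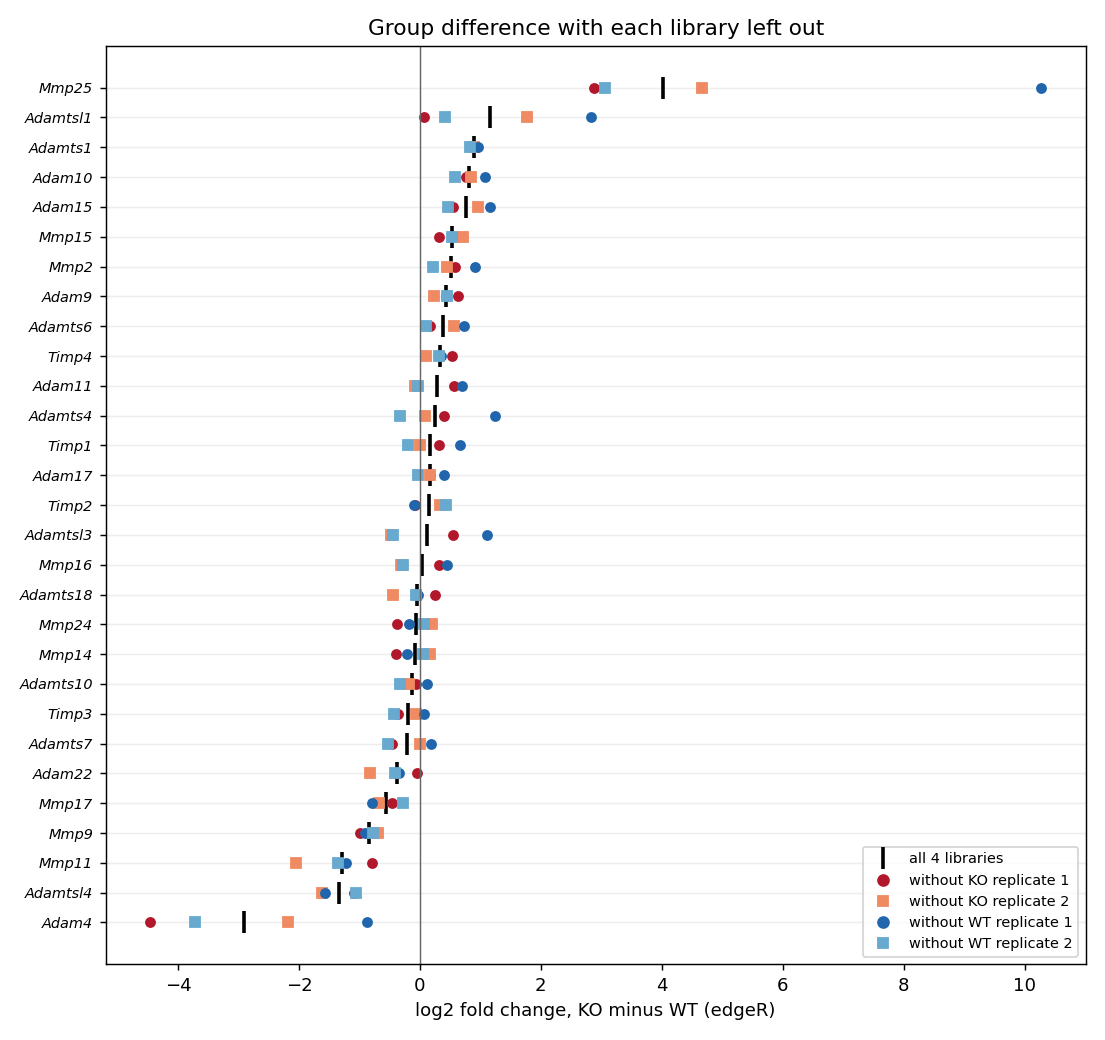
log2 fold change of KO over WT of the members described by sample (Adam33, with 0 counts in WT, is left out), from all 4 libraries (black ticks) and with each library omitted in turn (points). Adamts1, Adam10, Adamtsl4 and Mmp9 are among the genes that stay on 1 side of 0, as are Adam9, Mmp15 and Timp4, and 13 genes in the middle have points on both sides of 0.

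Among the ADAMTS proteases that cut lecticans, Adamts1 separated the groups with close replicates. Adamts1, which cuts versican and aggrecan and also restrains vessel growth (ENSMUSG00000022893, chr16:85793827-85803113), had 22.7 and 22.6 CPM in KO and 12.7 and 11.6 CPM in WT. The KO mean was 1.86-fold that of WT, or 22.7 ± 0.0841 CPM in KO and 12.2 ± 0.799 CPM in WT (SD over 2 libraries), a log2 difference of 0.90 ± 0.27 (SE, edgeR unadjusted p = 0.018). It did not pass over all genes (adjusted p = 0.46 in edgeR, 0.49 in DESeq2, 0.46 in limma-voom), and ranged only from 0.83 to 0.97 when single libraries were left out. The KO SD is smaller than counting error alone would give on its counts of 364 and 369, so it does not measure replicate precision. Adamts4, another lectican protease, had 17.1 and 21.3 CPM in KO and 24.1 and 8.13 CPM in WT. Its WT libraries bracketed both KO libraries (log2 fold change 0.25 ± 0.53), and the value moved to 1.24 on omission of WT replicate 1 and to -0.32 on omission of WT replicate 2. Of the 7 lectican proteases 4 had a log2 fold change above 0 and 3 below, with the lowest at -1.48 for Adamts20.

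Levels within the list of lecticans and their link proteins ran from trace to very high. Of 6 tested genes in it 0 passed and 5 had a log2 fold change below 0. Ncan, which encodes neurocan, had 7629 and 6429 CPM in KO and 7452 and 6397 CPM in WT, with overlapping groups (log2 fold change 0.02 ± 0.11). Bcan, which encodes brevican, had 1547 and 1567 CPM in KO and 1830 and 1604 CPM in WT, a log2 fold change of -0.14 ± 0.09 with KO below WT (adjusted p = 0.79).

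The other ADAMTS genes had overlapping groups for the most part. Adamts10, which is known for its part in fibrillin microfibrils, had 60.8 and 65.9 CPM in KO and 79.5 and 58.5 CPM in WT. Adamts6, its closest relative, had 30.2 and 22.9 CPM in KO and 24.8 and 16.1 CPM in WT. Neither separated the groups, with log2 fold changes of -0.12 ± 0.21 and 0.38 ± 0.32. Adamts18 and Adamts7 ranged from 12.3 to 19.9 CPM and from 10.5 to 18.1 CPM, with log2 fold changes of -0.06 ± 0.34 and -0.22 ± 0.40. The 3 procollagen N-propeptidases, which trim fibrillar collagens, lay between -0.34 and -0.12, and in each the libraries of the groups overlapped. In limma-voom Adamts14 and Adamts2 changed sign, to 1.15 and 0.17. Adamts17 and Adamts19, chosen after their values were seen, had both KO libraries below WT, at -0.85 ± 0.54 and -0.59 ± 0.48, and did not pass.

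The ADAMTS-like genes included the member with the smallest p among those lower in KO. Adamtsl4, which encodes a secreted protein of fibrillin microfibrils (ENSMUSG00000015850, chr3:95676201-95687917), had 6.37 and 9.20 CPM in KO and 16.2 and 23.2 CPM in WT. Both KO libraries lay below both WT libraries, and the WT mean was 2.53-fold that of KO. The means were 19.7 ± 4.98 CPM in WT and 7.79 ± 2.00 CPM in KO (SD over 2 libraries). The log2 fold change was -1.34 ± 0.38 (SE, unadjusted p = 0.014), which did not pass over all genes (adjusted p = 0.45 in edgeR, 0.22 in DESeq2, 0.40 in limma-voom). It ranged from -1.63 to -1.05 over the omission of single libraries. Adamtsl3 had 6.62 and 13.4 CPM in KO and 13.7 and 4.66 CPM in WT, with overlapping groups (log2 fold change 0.12 ± 0.64). Adamtsl1 had 9.87 and 3.005 CPM in KO and 4.86 and 0.904 CPM in WT. The spread within both of its groups was wide, and its log2 fold change of 1.15 ± 0.99 was 0.06 without KO replicate 1 and 2.82 without WT replicate 1. Adamtsl2, chosen after its values were seen, had 7.19 and 3.005 CPM in KO and 1.54 and 0.278 CPM in WT, at 2.47 ± 1.06 (adjusted p = 0.63). For Adamtsl1 and Adamtsl2 KO replicate 1 was highest and WT replicate 2 lowest, as for the endothelial sum, whose part was not tested. In the list of fibrillins and their partners 0 of 7 tested genes passed, and its most abundant members, Mfap2 and Ltbp4, lay at -0.28 ± 0.12 and 0.44 ± 0.39 on the log2 scale.

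Counted over the whole set, both KO libraries lay above both WT libraries in 11 of 55 tested members and below in 11, where 21.2% and 18.4% of all tested genes did so. These shares are near the background. Single libraries of 1 group differed at least as much as the group means did. Among the 33 members averaging at least 5 CPM, the median absolute log2 ratio was 0.51 between the WT libraries, 0.43 between the KO libraries and 0.34 between the group means. Each group mean averages 2 libraries, so where groups do not differ the ratio of the means is smaller by construction. Over all genes at that level the same medians were 0.30, 0.23 and 0.22. WT replicate 1 was above WT replicate 2 in 24 of these 33 members, beside 50.8% of all genes at that level. The highest of the 4 levels fell in WT replicate 1 for 20 of the 55 tested members (25.7% of all tested genes) and the lowest in WT replicate 2 for 22 (29.8%).

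**Figure D4:**
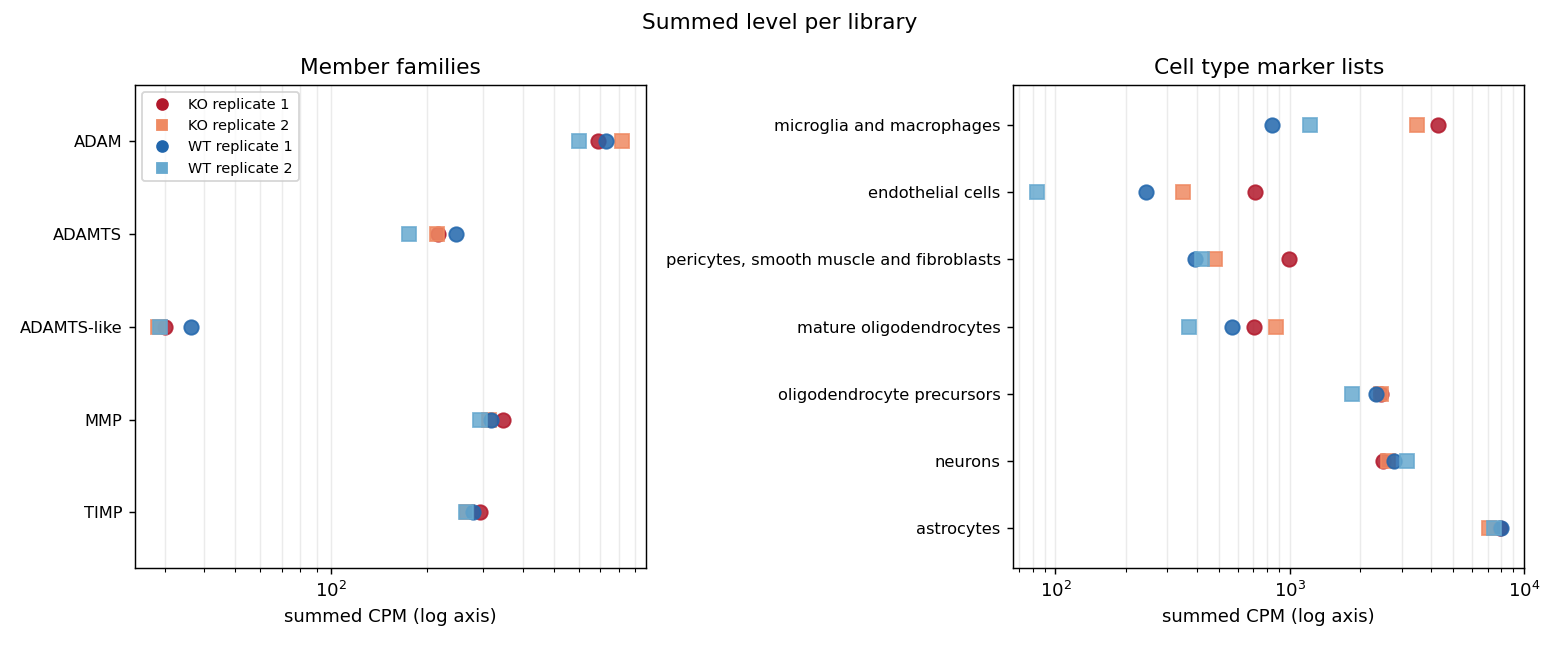
Summed CPM per library of the member families (left) and of marker lists of cell types (right), on log axes (points: single libraries). The family sums of the groups interleave or lie close together, from 601 to 822 CPM for ADAM genes, while the microglial sums of KO, 3477 and 4276 CPM, lie well above those of WT.

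Partners and regulators of these proteases, taken from curated lists, gave 0 calls in edgeR. Of the 16 tested activators, clearance receptors and other inhibitors, 9 lay above 0 on the log2 scale and the median was 0.14. At an unadjusted p of 0.05 in edgeR 4 were higher (Bsg, Lrp1, Plau and Plaur) and 1 was lower (A2m), beside 5.88% and 2.41% of all tested genes. Serpine2, an inhibitor of plasminogen activators and thrombin, had 1323 and 1426 CPM in KO and 1251 and 1243 CPM in WT (log2 fold change 0.14 ± 0.08, adjusted p = 0.75), and Lrp1, the receptor that clears MMPs and TIMPs from outside the cell, had 797 and 738 CPM in KO and 648 and 645 CPM in WT. Both KO libraries of Lrp1 lay above WT (log2 fold change 0.25 ± 0.09, unadjusted p = 0.040, edgeR adjusted p = 0.56). In this list the protease inhibitor gene A2m, chosen after its values were seen, had 36.6 and 39.4 CPM in KO and 63.0 and 63.0 CPM in WT. Its groups stood apart with close replicates (log2 fold change -0.73 ± 0.19, unadjusted p = 0.0087, adjusted p = 0.39). The urokinase gene Plau and its receptor Plaur, also chosen after their values were seen, were both higher in each KO library. Plau had 41 and 26 counts in KO and 0 in both WT libraries, a KO level 21.4-fold the limit taken for Adam33, which is no lower bound. Plaur had 12.6 and 12.9 CPM in KO and 4.56 and 5.01 CPM in WT (log2 fold change 1.41 ± 0.38, adjusted p = 0.44).

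The partners that escort ADAM10 and ADAM17 to the cell surface gave a median log2 fold change of 0.002 over 8 tested genes. Frmd8 and Tspan14, the most abundant, lay at 0.01 ± 0.20 and -0.21 ± 0.22. Of the tetraspanins that bind ADAM10, Tspan17, chosen after its values were seen, had 29.3 and 25.02 CPM in KO and 11.3 and 6.74 CPM in WT (log2 fold change 1.59 ± 0.35, unadjusted p = 0.0046, adjusted p = 0.34 in edgeR, 0.031 in DESeq2). Tspan15, also chosen after its values were seen, lay at 1.18 ± 0.45 (unadjusted p = 0.043, adjusted p = 0.57 in edgeR). Of the 8 tested partners these 2 had an unadjusted p under 0.05 in edgeR, where 5.88% of all tested genes were higher at that cut. Of 21 tested substrates shed by ADAM10 or ADAM17, 12 had a log2 fold change above 0 (median 0.11) and 0 passed. Cdh2, which encodes N-cadherin, and App, the most abundant, lay at -0.30 ± 0.12 and 0.12 ± 0.24. Those with an unadjusted p under 0.05, picked after their values were seen, were Tnfrsf1b at 1.54 ± 0.28, Trem2 at 1.37 ± 0.31, Il6ra at 2.01 ± 0.73 and Cx3cl1 at 0.79 ± 0.18. The receptor genes Tnfrsf1b, Trem2 and Il6ra are expressed by microglia, whose marker list had a median of 1.81 in the same libraries. Trem2 is itself in that marker list, and the part of microglia in these values was not tested. DESeq2 called Tnfrsf1b (adjusted p = 0.013), and edgeR called Il6ra on omission of WT replicate 2 (adjusted p = 0.040). Cx3cl1, the neuronal ligand of the microglial receptor CX3CR1, had 78.8 and 78.9 CPM in KO and 48.9 and 42.2 CPM in WT (adjusted p = 0.35).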

How the data were processed

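The 4 deposited tables, each pairing a KO with a WT library, hold whole-number counts per gene, per the file headers, and the counts of all 4 libraries were joined by gene. The submitters' processing notes name TopHat2 2.0.12, Bowtie2 2.2.3 and HTSeq 0.6.0, and the build mm9, without their roles. The gene positions deposited for 54 of the 61 members equal those of GENCODE M21 on GRCm38, so coordinates are GRCm38. A gene without a listed count was set to 0 and can have at most 4. Total counts per library were between 14224519 and 16961160. The Ddx3y and Xist counts place male RNA in KO replicate 2 and female RNA in KO replicate 1, so these are not repeats of 1 animal. No label says so of the WT libraries, which may or may not be repeats of 1 animal. The chi-square per gene was 17.9 between the KO and 27.0 between the WT libraries, and whether the WT spread is technical was not tested. Groups were compared with edgeR 4.0.16 in R 4.3.3 (TMM, filterByExpr with a minimum count of 10, quasi-likelihood test, two-sided, Benjamini-Hochberg over all genes, threshold 0.05, 2 residual degrees of freedom). The fit was also run on simulated counts drawn with its own dispersions, which cannot show how well its assumptions hold for these libraries. Each SE is the absolute log2 fold change divided by the square root of F. Levels per kilobase used the union of GENCODE M21 exons. DESeq2 1.42.0, limma 3.58.1, other scalings and filters, a replicate block and omission of each library were alternatives. Members and lists were chosen with earlier results of these data known. Values by library are given for all TIMPs, the 6 most abundant members of each family (3 ADAMTS-like) and the 5 smallest p in each direction, and for the 2 most abundant genes of each related list, and others are named as chosen after their values were seen or as examples of a role. Limits from a count of 0 cover counting error only.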

Additional observations from a re-analysis of the deposited data

How the results depend on the processing

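No member passed in edgeR under any of the alternatives run, which were RLE and upper-quartile scaling, no low-count filter, a mean of at least 5 CPM, missing counts at their upper limit, the replicate block and the omission of each library. DESeq2 called 2 members higher, Adam10 (log2 fold change 0.80) and Mmp25 (4.05), and 0 lower. The equal replicate numbers are not stated to share an animal or batch, and the correlation of same-numbered deviations was 0.04. With the replicate block 0 members passed, the median log2 fold change of the members was 0.05, and the calls over all genes went from 3 to 4. The median of the members, -0.06, ran from -0.084 to 0.27 as libraries were left out (0.27 without WT replicate 1), and was 0.09 in DESeq2, 0.08 in limma-voom, 0.10 with no filter and 0.09 at a mean of at least 5 CPM. These medians do not all cover the same members. DESeq2 and the fit with no filter also took in members with too few counts for the main test. The 5 CPM filter kept 33, and 57 or 58 were tested when a library was left out. A change of sign between these sets is therefore not an effect of the setting alone. Members with both KO libraries above WT, 11, became 17 to 25 and those below, 11, became 15 to 27 when a library was left out, where 3 libraries overlap less often by construction. The same shares of all genes were then 33.1% to 39.2% above and 28% to 35.9% below. The highest counts were 25 above without WT replicate 1 and 27 below (46.6% of the members, 35.6% of all genes) without WT replicate 2. At a mean of at least 5 CPM, 9 of 33 members lay above and 6 below, beside 20.6% and 19.9% of all genes. Among the 30 members named by the rule, single-library omission turned the direction of 13, whose log2 fold changes ran from -0.084 to 0.69 (Adam11), -0.040 to 0.41 (Adam17), -0.33 to 0.12 (Adamts10), -0.44 to 0.25 (Adamts18), -0.32 to 1.24 (Adamts4), -0.53 to 0.19 (Adamts7), -0.47 to 1.10 (Adamtsl3), -0.40 to 0.17 (Mmp14), -0.32 to 0.46 (Mmp16), -0.38 to 0.21 (Mmp24), -0.20 to 0.66 (Timp1), -0.092 to 0.44 (Timp2) and -0.42 to 0.067 (Timp3). No other alternative turned a direction among these 30. The same alternatives were run on 30 other genes given in the text, a choice made after seeing the data. Omission of 1 library turned Adam8 (-1.46 to 0.21), Adam23 (-0.46 to 0.50), Adamts2 (-1.84 to 1.99), Adamts3 (-0.77 to 0.27), Adamts14 (-1.24 to 3.69), Ncan (-0.10 to 0.14), Ltbp4 (-0.030 to 1.14), Frmd8 (-0.19 to 0.25), Tspan14 (-0.46 to 0.11) and App (-0.18 to 0.52). Adamts14 and Adamts2 also turned in limma-voom (1.15 and 0.17) and with the replicate block (0.85 and 0.014), and Frmd8 with upper-quartile scaling (-0.0068). The cause was not tested. Depth limits the members with few counts, and 40 of the 61 had at least 10 counts in every library.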
